A study of Oryza sativa with 9 samples.

Results

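Lignin in rice is built from monolignols, and the genes described here encode enzymes that make them on either side of the step that OsCOMT catalyses. The set held 10 genes of 37858 in the deposited expression table. They were chosen by identifier as the genes of cinnamate 4-hydroxylase (C4H), hydroxycinnamoyl transferase (HCT), coumaroyl shikimate 3'-hydroxylase (C3'H), caffeoyl-CoA O-methyltransferase (CCoAOMT, 3 genes), cinnamoyl-CoA reductase (CCR), coniferaldehyde 5-hydroxylase (CAld5H1) and cinnamyl alcohol dehydrogenase (CAD2 and CAD7). OsCOMT itself and the genes of phenylalanine ammonia-lyase (PAL) and 4-coumarate CoA ligase (4CL) were kept out of the set. The files do not pair identifiers with names, and a RefSeq gene of the same name was found at a like position for 3 of the 10 (HCT, CAD2 and CAD7), so the class of the other genes rests on the selection.

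The pathway starts from phenylalanine, which PAL turns into cinnamic acid. C4H hydroxylates that acid, 4CL activates the product with coenzyme A, and HCT and C3'H together add the next hydroxyl group. CCoAOMT methylates the coenzyme A ester, CCR reduces it to coniferaldehyde, CAld5H hydroxylates the aldehyde again on the way to syringyl units, and CAD reduces the aldehydes to the alcohols that are polymerised. In a leaf, lignin is laid down mainly in the walls of xylem and sclerenchyma, and the early steps also feed flavonoids and wall-bound hydroxycinnamates.

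RNA was sequenced from rice leaves (Oryza sativa) of 3 genotypes. The mutant was mutated in OsCOMT, OE overexpressed OsCOMT, and WT was the wild type. The labels name neither the kind of mutation nor the promoter of the overexpressed gene. All 9 libraries, 3 of each genotype, came from leaves 85 days after sowing, by their age label. In the sample titles WT and OE bear another, unexplained number, and the mutant is numbered in a different way, so whether the mutant libraries are lines or plants, or were handled like the rest, is not known. The labels give no further treatment, do not say how many independent lines stand behind the mutant or OE, whether the replicates were separate plants, or at which hour leaves were taken. The p-values thus weigh a difference between groups against the spread between these libraries, estimated over all 3 genotypes together. Part of that spread may be technical.

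Levels are in FPKM, which scales reads by the length of the gene and the size of the library, so they can be compared between genes. The libraries were scaled to between 10674819 and 11809530 reads. OsCOMT averaged 361 ± 121 FPKM in the mutant, 2643 ± 628 FPKM in OE and 241 ± 15.8 FPKM in WT (SD, n = 3 each). It was above every WT library in all OE libraries, as their label says. Its level is no check on the mutant label, because a mutated gene may still be transcribed. Set against WT, OsCOMT in the mutant had a log2 fold change of 0.52 with an SE of 0.27 and did not pass (limma adjusted p = 0.15). The first principal component of all tested genes held 72.2% of the variance. On it the mutant lay at 72.6 to 88.6, and OE and WT at -46.3 to -26.9. The OE libraries lay close together there, at -40.3, -42.5 and -39.6. The second component held 9.1%. There OE replicate 1 was away from its group, at 2.5, where the other OE libraries were at -31.8 and -29.0 and WT between 17.4 and 22.7. Leaf tissue was seen in all libraries, with 6 mesophyll markers summing to 6528 to 8060 FPKM in the mutant, 3756 to 6060 FPKM in OE and 3870 to 5090 FPKM in WT. The 3 cellulose synthase genes that mark secondary walls, CESA4, CESA7 and CESA9, summed to 0.269 to 0.468 FPKM in the mutant, 0.214 to 0.318 FPKM in OE and 0.0257 to 0.175 FPKM in WT, and CESA7 was at 0 in all 9 libraries. The 5 other genes of the secondary wall list, regulators of wall formation, summed to 0.665 to 1.2 FPKM in the mutant, 0.924 to 1.97 FPKM in OE and 1.19 to 1.97 FPKM in WT, and 1 of them was at 0 in all libraries. The CESA sums were higher in both the mutant and OE than in WT, and the regulator sums were lower in the mutant than in WT with a narrow overlap. Of these 8 genes 0 reached a mean of 1 FPKM over the 9 libraries, so no direction is read from the sums. Both sums were small beside the monolignol genes other than CAD7 and the CCoAOMT gene Os08g0498400. The highest monolignol value was 252 FPKM, for CAD2 in OE replicate 2.

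**Figure D1:**
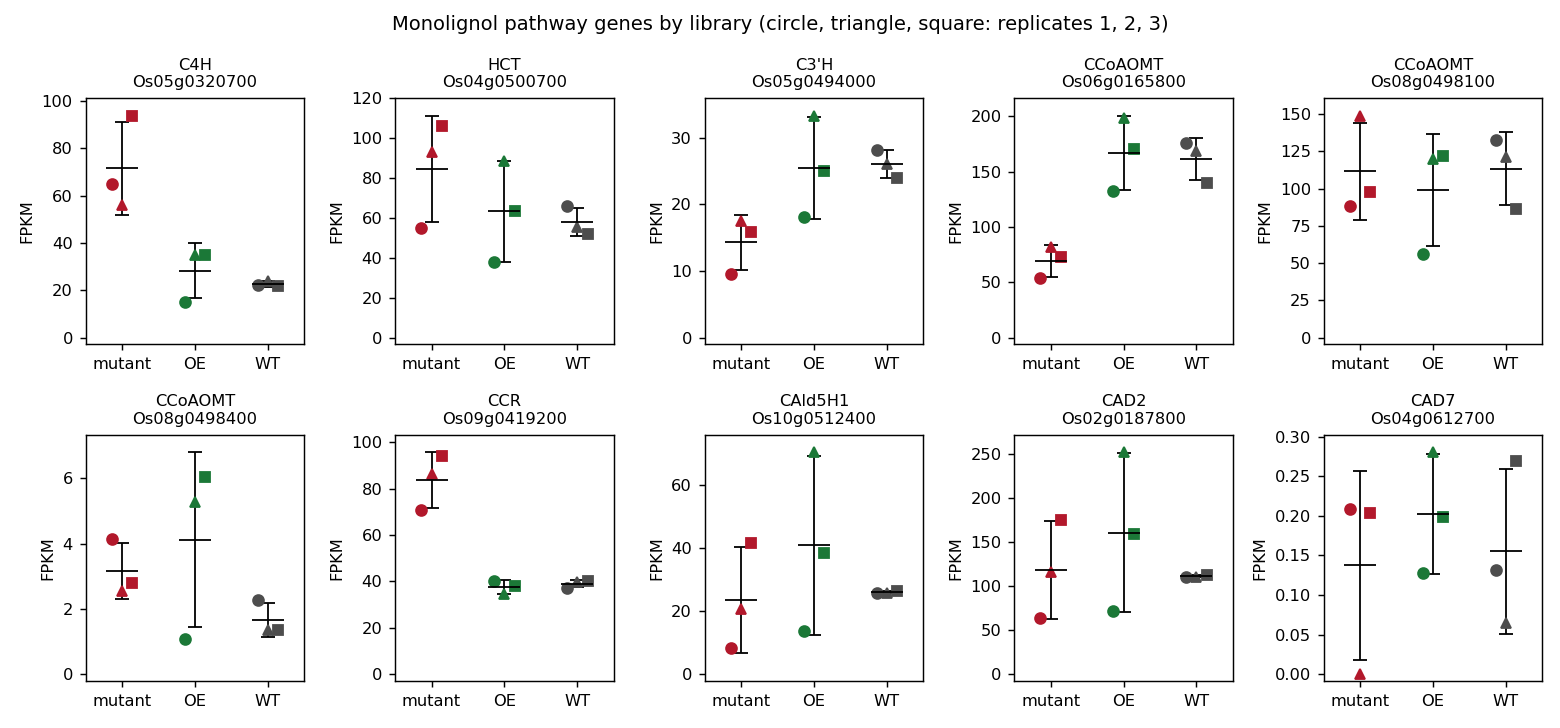
FPKM of the 10 monolignol genes (y axis, a scale of its own for each gene) by genotype (x axis), with circles, triangles and squares for replicates 1, 2 and 3, a horizontal bar for the mean and whiskers for 1 SD (n = 3). C4H and CCR lie higher in all 3 mutant libraries than in any OE or WT library, C3'H and the CCoAOMT gene Os06g0165800 lie lower, and CAld5H1 and CAD2 spread widely in the mutant and OE but not in WT.

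The mutant differed from WT in 4 of the 9 genes that were high enough to test, at a mean of at least 1 FPKM over the 9 libraries. C4H and CCR rose, C3'H and Os06g0165800, one of the CCoAOMT genes, fell, and HCT, the other 2 CCoAOMT genes, CAld5H1 and CAD2 did not pass. The count of 2 higher and 2 lower stands beside 19.6% of all 19850 tested genes higher and 22.4% lower in the same comparison, where a gene passed at a limma adjusted p under 0.05. The median log2 fold change of the 9 genes was -0.03, against -0.01 over all tested genes. The share of genes called was thus close to that of the whole table, and the median change lay near 0.

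C4H (Os05g0320700, chromosome 5) encodes the cytochrome P450 of the first hydroxylation. It was at 64.8, 56 and 93.8 FPKM in the mutant libraries, against 22.3, 23.9 and 21.8 FPKM in the WT libraries. Every mutant library lay above every WT library. The means were 71.6 ± 19.8 FPKM in the mutant and 22.6 ± 1.11 FPKM in WT (SD, n = 3 each), a ratio of 3.16, and the log2 fold change was 1.59 (SE 0.30, limma adjusted p = 0.0025). The signed log2 fold change was lower for 96.6% of the tested genes. In bulk leaf RNA, more or fewer cells of a type and more or less RNA per cell cannot be told apart, here and for each gene that follows.

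HCT and C3'H act in turn on the shikimate ester, and of this pair C3'H passed the threshold. The difference between their changes was not tested. HCT (Os04g0500700, chromosome 4, HCT1 in RefSeq) was at 55, 93 and 106 FPKM in the mutant, against 65.7, 55.6 and 52 FPKM in WT. The groups overlapped through mutant replicate 1, and the log2 fold change of 0.50 (SE 0.31) did not pass (limma adjusted p = 0.23). C3'H (Os05g0494000, chromosome 5), the P450 that hydroxylates the ester HCT makes, was at 9.61, 17.5 and 15.8 FPKM in the mutant, against 28.2, 26.1 and 23.9 FPKM in WT. All mutant libraries lay below all WT libraries. Its means of 14.3 ± 4.12 FPKM in the mutant and 26.1 ± 2.13 FPKM in WT (SD, n = 3 each) differed by -0.86 on the log2 scale (SE 0.24, limma adjusted p = 0.017). This call was the least firm of the 4: without mutant replicate 1 the log2 fold change was -0.62 (limma adjusted p = 0.052), and without WT replicate 1 it was -0.81 (limma adjusted p = 0.058).

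Of the 3 CCoAOMT genes, whose enzyme places the first methyl group, 1 fell and 2 did not pass. Os06g0165800 (chromosome 6) was at 53.4, 81.9 and 72.5 FPKM in the mutant, against 176, 169 and 140 FPKM in WT. The highest mutant library lay well under the lowest WT library. The means were 69.3 ± 14.5 FPKM in the mutant and 162 ± 19.4 FPKM in WT (SD, n = 3 each), a ratio of 0.428, and the log2 fold change was -1.23 (SE 0.19, limma adjusted p = 0.00073).

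Os08g0498100 (chromosome 8) was at 88.3, 149 and 98 FPKM in the mutant, against 133, 121 and 86.1 FPKM in WT. These ranges overlapped, and the log2 fold change was -0.03 (SE 0.32, limma adjusted p = 0.94). Os08g0498400 (chromosome 8) was far lower, at 4.13, 2.54 and 2.78 FPKM in the mutant, against 2.26, 1.35 and 1.35 FPKM in WT, from 163 and 90 reads summed over the libraries of each group. Its groups did not overlap, but the log2 fold change of 0.65 (SE 0.41) did not pass (limma adjusted p = 0.24). It passed with only the mutant and WT libraries in the fit (limma adjusted p = 0.041) and without OE replicate 1 (limma adjusted p = 0.027). The identifiers of the chromosome 8 genes place them close together, and how reads shared between like copies were counted is not given in the sources used here, so their separate levels are uncertain.

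The share of each gene in the CCoAOMT transcripts was worked out after the values were seen and is given without a test. Os06g0165800 held 36.6%, 35% and 41.8% of the summed FPKM of the 3 genes in the mutant, against 56.5%, 58.1% and 61.5% in WT. The mean share was 37.8% ± 3.57 in the mutant, 62.7% ± 6.53 in OE and 58.7% ± 2.56 in WT (SD, n = 3 each). In the mutant Os08g0498100 was thus the more abundant gene in every library, whereas Os06g0165800 was the more abundant in every OE and WT library. The summed level of the 3 genes was 184 ± 45 FPKM in the mutant, 270 ± 72 FPKM in OE and 277 ± 44.2 FPKM in WT (SD, n = 3 each).

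**Figure D2:**
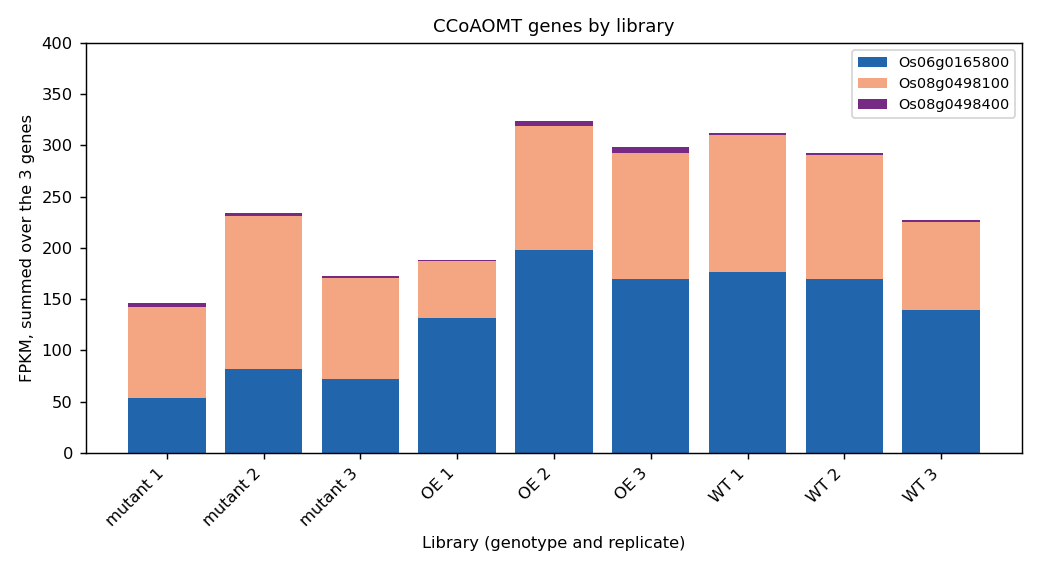
Summed FPKM of the 3 CCoAOMT genes (y axis) in each library (x axis, mutant, OE, then WT), with each bar divided by gene. The Os06g0165800 segment takes between 35% and 41.8% of the bar in the mutant and between 56.5% and 69.8% in the OE and WT libraries.

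CCR (Os09g0419200, chromosome 9) encodes the reductase that commits the coenzyme A esters to monolignols. It was at 70.6, 86.2 and 94.1 FPKM in the mutant, against 37.2, 39.6 and 40.1 FPKM in WT. The WT libraries lay within a narrow range that all mutant libraries exceeded. The means were 83.6 ± 12 FPKM in the mutant and 39 ± 1.52 FPKM in WT (SD, n = 3 each), a ratio of 2.15. The log2 fold change, 1.07 with an SE of 0.11 (limma adjusted p = 7.2e-05), had the smallest standard error and the smallest p among the 9 genes in this comparison.

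CAld5H1 (Os10g0512400, chromosome 10), which acts on the way to syringyl units, was at 8.33, 20.7 and 41.7 FPKM in the mutant, against 25.8, 25.9 and 26.3 FPKM in WT. The mutant libraries lay on both sides of WT, and the log2 fold change was -0.39 (SE 0.60, limma adjusted p = 0.64). CAD2 (Os02g0187800, chromosome 2), the gene of the reduction to alcohols that RefSeq also lists as GH2 for the gold hull and internode phenotype, was at 64.2, 116 and 175 FPKM in the mutant, against 111, 111 and 113 FPKM in WT. Its log2 fold change was -0.03 (SE 0.44, limma adjusted p = 0.96). For both genes the standard error was larger than the estimate, so a difference of that size was not detectable with these libraries.

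CAD7 (Os04g0612700, chromosome 4), listed in RefSeq also as FC1 for its flexible culm phenotype, was almost without reads. It had 3, 0 and 3 reads in the mutant libraries, 2, 4 and 3 reads in the OE libraries and 2, 1 and 4 reads in the WT libraries. The 0 reads of mutant replicate 2 allow a level of up to 0.213 FPKM, taking 3 reads as the limit for counting error only. It lay below the level tested, and no fold change is given.

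Overexpression left the set without a call. Against WT, 0 of the 9 tested genes were higher and 0 lower in OE by limma, and voom on the recovered reads called 0. Of all tested genes 0.171% were higher and 0.0605% lower, so few genes of any kind were called. Before adjustment 0 of the 9 had a limma p below 0.05, and 2007 of all 19850 tested genes did. The median log2 fold change of the 9 genes was 0.06, against -0.00 over all tested genes. That a gene did not pass does not show that its level was the same.

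CCR was the most narrowly measured of them, at 40.1, 34.5 and 38.2 FPKM in OE, against 37.2, 39.6 and 40.1 FPKM in WT. Its log2 fold change was -0.05 (SE 0.11, limma adjusted p = 0.91). Os06g0165800 was at 132, 198 and 170 FPKM in OE, against 176, 169 and 140 FPKM in WT (log2 fold change 0.03, SE 0.19, limma adjusted p = 0.97). C3'H was at 18.1, 33.3 and 25 FPKM in OE, on both sides of the WT libraries (log2 fold change -0.07, SE 0.24, limma adjusted p = 0.94). C4H was at 14.9, 35.1 and 35 FPKM in OE, where replicate 1 lay below and the others above all WT libraries (log2 fold change 0.22, SE 0.30, limma adjusted p = 0.85).

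The other genes had wide OE ranges. HCT was at 38, 88.5 and 63.5 FPKM (log2 fold change 0.06, SE 0.31), and Os08g0498100 at 55.9, 120 and 122 FPKM (log2 fold change -0.25, SE 0.32). CAld5H1 was at 13.7, 70.3 and 38.4 FPKM (log2 fold change 0.36, SE 0.60), and CAD2 at 71.9, 252 and 159 FPKM (log2 fold change 0.34, SE 0.44). The largest estimate was that of Os08g0498400, at 1.07, 5.27 and 6.03 FPKM in OE (log2 fold change 0.78, SE 0.41, limma adjusted p = 0.57). Without OE replicate 1, which stood apart on the second principal component, that value was 1.34 with a limma adjusted p of 0.051. There 0 of the 9 genes passed as well.

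The mutant and OE were also set against each other, a comparison that shares its libraries with those against WT and is no independent repeat of them. In the mutant 2 of the 9 genes were higher and 2 lower than in OE, beside 20.5% of all tested genes higher and 22.9% lower. C4H was higher by 1.37 on the log2 scale (SE 0.30, limma adjusted p = 0.0053) and CCR by 1.13 (SE 0.11, limma adjusted p = 5.1e-05), with no overlap between the groups for either gene. Os06g0165800 was lower (log2 fold change -1.26, SE 0.19, limma adjusted p = 0.00062), and its highest mutant library at 81.9 FPKM lay below its lowest OE library at 132 FPKM. C3'H was lower as well (log2 fold change -0.79, SE 0.24, limma adjusted p = 0.024).

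The C3'H call against OE did not pass with only the mutant and OE in the fit (limma adjusted p = 0.052), nor without OE replicate 2 (log2 fold change -0.58, limma adjusted p = 0.085), OE replicate 3 (limma adjusted p = 0.059) or mutant replicate 1 (log2 fold change -0.55, limma adjusted p = 0.076). HCT, Os08g0498100, Os08g0498400, CAld5H1 and CAD2 had log2 fold changes of 0.44, 0.21, -0.14, -0.75 and -0.38 against OE, and none of them passed. Without OE replicate 1 the value of Os08g0498400 was -0.70 with a limma adjusted p of 0.033, which made 3 genes lower.

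**Figure D3:**
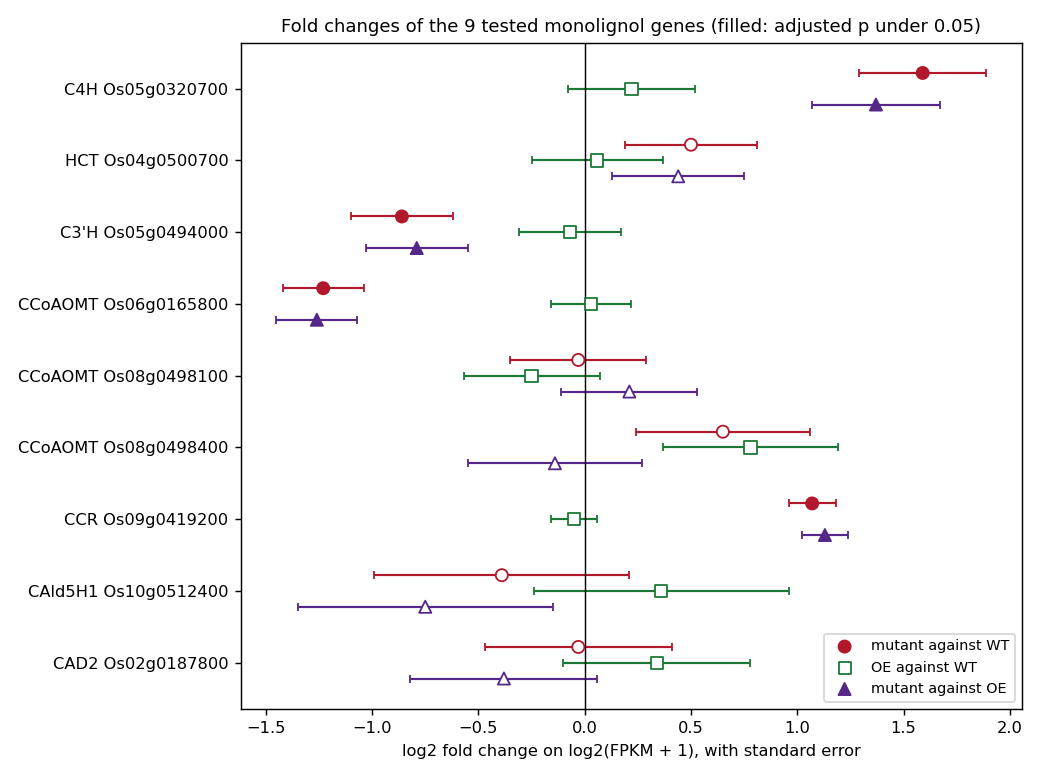
Log2 fold change on the log2(FPKM + 1) scale (x axis) of the 9 tested genes (y axis), with whiskers of 1 SE, for the mutant against WT (circles), OE against WT (squares) and the mutant against OE (triangles). Filled symbols, at a limma adjusted p under 0.05, are those of C4H, C3'H, Os06g0165800 and CCR in both comparisons of the mutant, and the OE against WT symbols are all open, from -0.25 to 0.78.

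Within a genotype the order of levels was as follows. In the mutant, CAD2 at 118 ± 55.3 FPKM, Os08g0498100 at 112 ± 32.8, HCT at 84.7 ± 26.5, CCR at 83.6 ± 12, C4H at 71.6 ± 19.8 and Os06g0165800 at 69.3 ± 14.5 FPKM (SD, n = 3 each) came first, and each overlapped with the next in its library values. CAld5H1, C3'H, Os08g0498400 and CAD7 followed, and all of these neighbours but CAld5H1 and C3'H lay apart. In OE, Os06g0165800 at 167 ± 33.5 FPKM and CAD2 at 161 ± 90.1 FPKM led, and no neighbours lay apart down to C3'H at 25.5 ± 7.63 FPKM. In WT the order was clearer: Os06g0165800 at 162 ± 19.4 FPKM lay above Os08g0498100 at 113 ± 24.5 FPKM in every library. CAD2, at 112 ± 1.29 FPKM in WT, could not be separated from Os08g0498100, while HCT at 57.8 ± 7.13 FPKM and CCR at 39 ± 1.52 FPKM each lay apart from their neighbours. C3'H and CAld5H1 overlapped in WT, at 26.1 ± 2.13 and 26 ± 0.301 FPKM, and C4H at 22.6 ± 1.11 FPKM lay below CAld5H1 in every library. By its mean C4H was the eighth of the 10 genes in WT and the fifth in the mutant.

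C4H and C3'H, the P450 enzymes of the ring hydroxylations before methylation, stood in other proportions in the mutant. The ratio of C4H to C3'H FPKM, also chosen after the values were seen and given without a test, was 6.74, 3.21 and 5.96 in the mutant, 0.822, 1.05 and 1.4 in OE and 0.79, 0.917 and 0.909 in WT. It averaged 5.3 ± 1.85 in the mutant, 1.09 ± 0.291 in OE and 0.872 ± 0.0712 in WT (SD, n = 3 each). The FPKM of all 10 genes summed to 581 ± 145 in the mutant, 627 ± 228 in OE and 560 ± 50.1 in WT (SD, n = 3 each), and these sums overlapped between the genotypes.

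The members also varied among libraries of 1 genotype. OE replicate 1 was the lowest OE library for 8 of the 9 tested genes, beside 39% of all tested genes, and CCR was the exception. Mutant replicate 1 was the lowest mutant library for 7 of the 9, beside 45.7% of all tested genes. The median deviation of the 9 genes from their genotype mean was -0.74 on the log2(FPKM + 1) scale in OE replicate 1 and -0.35 in mutant replicate 1, and that of all tested genes was -0.01 and -0.04 in the same libraries. What made these libraries low for the set was not tested.

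CAld5H1 and CAD2 varied most among the abundant genes, and together. The highest CAld5H1 library held 5.01 times the lowest in the mutant, 5.11 times in OE and 1.02 times in WT. For CAD2 the same ratios were 2.72 in the mutant, 3.51 in OE and 1.02 in WT. In WT the coefficient of variation was 1.16% for CAld5H1 and 1.15% for CAD2, where read counting alone gives about 4.01% and 2.37%. With 3 libraries such a value is imprecise, and these genes were picked out after the values were seen. Over all tested genes the WT pairs differed by more than counting noise (chi-square of 6.69 to 12.7 per gene). Over the 9 libraries the log2(FPKM + 1) values of CAld5H1 and CAD2 had a Pearson r of 0.98, as a description of points that share library and depth. The ratio of CAld5H1 to CAD2 nevertheless ran from 0.13 to 0.239 in the mutant and from 0.191 to 0.279 in OE, while it lay between 0.232 and 0.233 in WT.

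**Figure D4:**
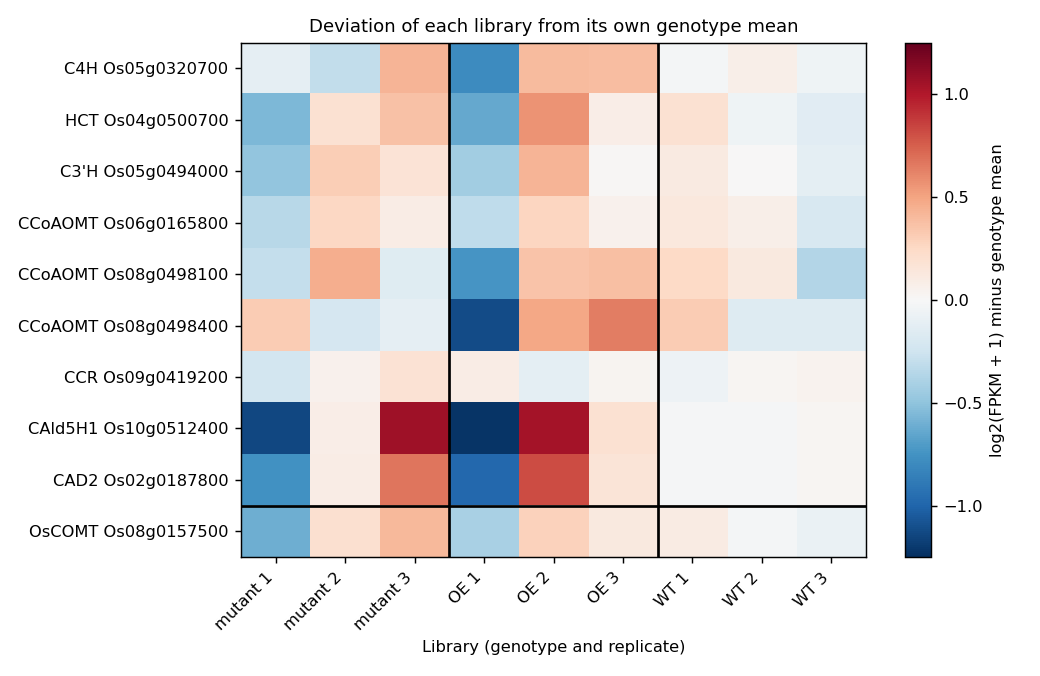
Deviation of each library from its own genotype mean on the log2(FPKM + 1) scale (colour, blue below and red above), for the 9 tested genes and OsCOMT (rows) in the 9 libraries (columns). OE replicate 1 is below its mean for 8 of the 9 genes, CAld5H1 reaches -1.23 there and -1.14 in mutant replicate 1, and the WT columns are pale.

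Each gene was matched with the gene most like it over the 9 libraries, among 29 tested genes of the pathway lists. Besides CAld5H1 and CAD2, C3'H was most like Os06g0165800 (r = 0.95), and Os06g0165800 was most like CAD8C, another cinnamyl alcohol dehydrogenase gene (r = 0.96). CCR was most like 4CL2 (r = 0.94), and C4H, HCT and Os08g0498100 were each most like a gene of the PAL list (r = 0.92, 0.90 and 0.85). Os08g0498400 had no close partner among these 29 genes (r = 0.63 with a gene of the CCR list). Its closest match among all tested genes had an r of 0.935. Among all 19850 tested genes, the closest matches were Os01g0677900 to Os06g0165800 (r = 0.995) and Os01g0286200 to CCR (r = 0.992), for which the files give no product. These values describe 9 libraries of 3 genotypes, which share their depth between the genes compared. The genotype means were not removed, so genes that differ alike between genotypes have a high r for that reason. Each match is also the highest r of many genes, and is high by that choice.

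The rest of the pathway was read from lists of further copies. Of 9 PAL genes listed 6 were tested, and the mutant against WT had 2 higher, 0 lower and 4 not called (median log2 fold change 0.40). Of 5 4CL genes listed 4 were tested, and 1 rose, 0 fell and 3 did not pass (median -0.21). The gene that rose was 4CL2 (Os02g0697400), at 12, 8.02 and 22 FPKM in the mutant, against 0.344, 2.09 and 0.7 FPKM in WT (log2 fold change 2.86, SE 0.43, limma adjusted p = 0.00067). Of 21 further copies of the steps in the set 9 were tested, and 2 rose, 2 fell and 5 did not pass (median 0.02). Over all tested genes 19.6% were higher and 22.4% lower in this comparison, and nothing is read from the counts of lists this small. All these lists had 0 genes called in OE against WT by limma, where only 0.171% of all tested genes were higher and 0.0605% lower. Against OE, the mutant had 3 PAL genes, 1 4CL gene and 2 further copies higher and 0, 0 and 2 lower in the same order, beside 20.5% higher and 22.9% lower over all tested genes.

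The 4 further copies called in the mutant were CAD genes, as were 6 of the 9 tested, so their number says nothing particular of that family. CAD3 (Os10g0430200) was at 287, 211 and 315 FPKM in the mutant, against 94.9, 73.4 and 144 FPKM in WT (log2 fold change 1.41, SE 0.23, limma adjusted p = 0.00097). CAD9 (Os03g0223200) was at 3.44, 3.59 and 2.74 FPKM in the mutant, against 0.684, 1.41 and 1.32 FPKM in WT (log2 fold change 1.01, SE 0.21, limma adjusted p = 0.0041). CAD8B (Os09g0400000) fell to 0.509 ± 0.391 FPKM in the mutant, against 4.7 ± 1.69 FPKM in WT (SD, n = 3 each; log2 fold change -1.91, SE 0.25, limma adjusted p = 0.00029). CAD8C (Os09g0400300) fell to 0.209 ± 0.0778 FPKM in the mutant, against 2.44 ± 0.664 FPKM in WT (SD, n = 3 each; log2 fold change -1.49, SE 0.17, limma adjusted p = 0.00013). These folds of low genes depend on the pseudocount: with a pseudocount of 5 and with voom on the recovered reads the log2 fold change was -0.80 and -3.29 for CAD8B, -0.51 and -3.42 for CAD8C, 0.43 and 1.54 for CAD9 and 1.60 and 3.97 for 4CL2. The mutant libraries held 22 reads of CAD8B and 13 reads of CAD8C in all. The CAD8 copies are neighbours, so their names may be exchanged among them and shared reads could not be told apart.

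Summed over the listed copies of a step, the set carried nearly all of the transcripts at some steps and a smaller share at others. The C4H gene of the set held 99.6% of the C4H sum in the mutant, 99.5% in OE and 99.7% in WT, and the 3 CCoAOMT genes held 95.9% in the mutant, 97.6% in OE and 97.2% in WT. CCR (Os09g0419200) held 46.5% of the CCR sum in the mutant, 28.3% in OE and 34.7% in WT. The most abundant further CCR copy averaged 96.2 ± 33.3 FPKM in the mutant and 72.7 ± 3.04 FPKM in WT (SD, n = 3 each). It did not pass in the mutant against WT (log2 fold change 0.34, SE 0.39, limma adjusted p = 0.51). The rise of CCR is thus that of 1 gene and not of every copy of the step. HCT (Os04g0500700) held 68.8% of the HCT sum in the mutant, 51% in OE and 56.3% in WT. CAD2 and CAD7 held 29.4% of the CAD sum in the mutant, 57.6% in OE and 47.3% in WT. The CAD sum was 403 ± 87.9 FPKM in the mutant, 280 ± 95 FPKM in OE and 237 ± 35.6 FPKM in WT (SD, n = 3 each), a difference described without a test. In the mutant the most abundant CAD gene was CAD3 in every library, and in WT CAD2 was ahead of CAD3 in replicates 1 and 2 but not in replicate 3.

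**Figure D5:**
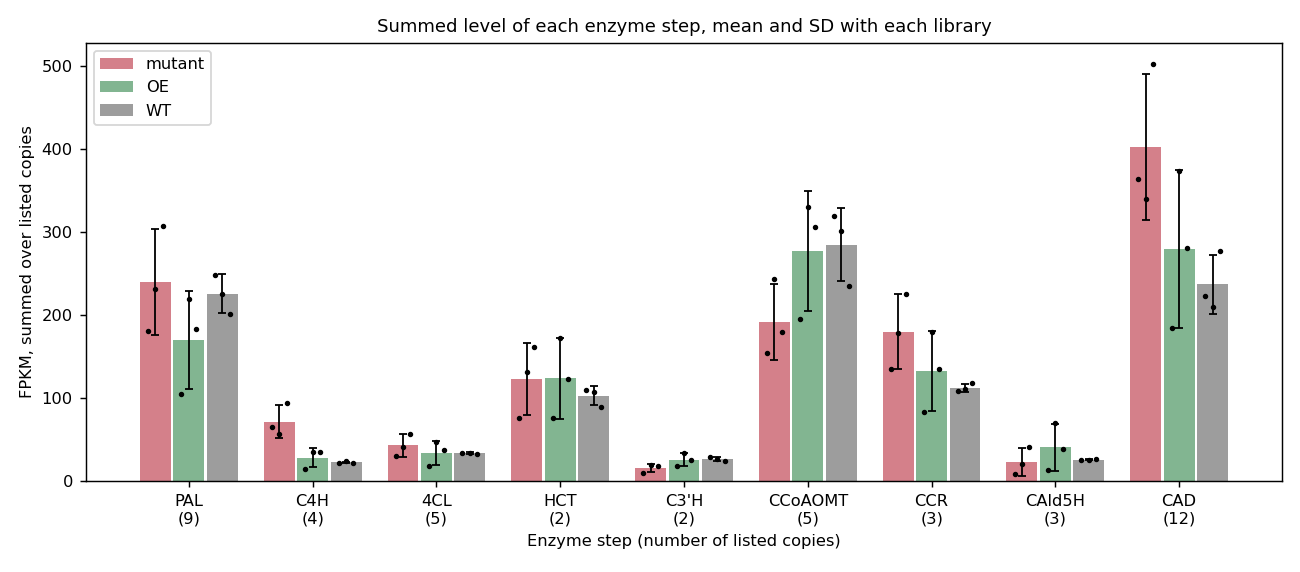
FPKM summed over the listed copies of each enzyme step (y axis) in pathway order (x axis, with the number of copies), as means with whiskers of 1 SD (n = 3) and a dot for each library. The C4H sum averaged 71.8 FPKM in the mutant, 28.5 FPKM in OE and 22.7 FPKM in WT, and the CCoAOMT sum averaged 192 FPKM in the mutant, 277 FPKM in OE and 285 FPKM in WT.

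Other markers moved with the mutant too, and their part in the results above was not tested. The 6 mesophyll markers summed to 6528 to 8060 FPKM in the mutant, 3756 to 6060 FPKM in OE and 3870 to 5090 FPKM in WT. In the mutant against WT 2 of them were higher, 0 lower and 4 not called, beside 19.6% higher and 22.4% lower over all tested genes. Against OE 2 were higher and 1 lower, beside 20.5% and 22.9%. The phloem marker SUT1, a sucrose transporter gene, lay at 132 to 139 FPKM in the mutant, 29.8 to 46.6 FPKM in OE and 46.4 to 65.2 FPKM in WT. Of 3 root markers 2 were at 0 in all libraries, and the third, LSI1, a silicon transporter gene, set a sum of 40 to 56.3 FPKM in the mutant, 5.48 to 10.8 FPKM in OE and 7.83 to 13.5 FPKM in WT. Of 6 clock genes, all tested, 1 rose and 3 fell in the mutant against WT, beside 19.6% higher and 22.4% lower over all tested genes. In OE against WT 0 of them were called by limma, beside 0.171% higher and 0.0605% lower over all tested genes. Of 8 genes of the secondary wall list, 0 reached the level tested.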

How the data were processed

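Libraries of 9 rice leaf samples were prepared with an Illumina TruSeq kit, per the labels' protocols. What the authors deposited is FPKM per gene, in 1 column per library. Bowtie 0.12.2, Cuffdiff and build IRGSP-1.0 are named in the submitters' processing notes, without the step each served. The table held 1 further per-sample column, which matched no sample and was not used. Of 30062 genes above 0, 30061 resolved into whole reads (relative tolerance 9e-07), which gave the scaling totals. No pair of replicates was as alike as counting noise alone would make it (chi-square of 6.69 to 18.4 per tested gene). The test was limma 3.58.1 (R 4.3.3) of log2(FPKM + 1) for genes averaging 1 FPKM or more, with all 9 libraries in 1 fit with no covariate, eBayes with trend, two-sided, Benjamini-Hochberg over 19850 genes, threshold 0.05. This scale understates changes of low genes. The genes and lists were chosen with earlier results of these data known. Named genes are the 10, OsCOMT, called 4CL and further copies whose names a RefSeq table (assembly ASM3414082v1) holds on the same chromosome at a relative rank within 0.03, and the closest matches. PAL and clock genes are given as counts, and cell type markers (CESA genes, SUT1, LSI1 and mesophyll genes) by their summed level. The mesophyll genes are given as counts as well. The names CAD1 and CAD3, first exchanged in the list, were corrected from it. Alternatives left out each library, used voom on the recovered reads, fitted only the 2 groups, added array weights or the replicate block, dropped the trend or the filter, raised the filter to 5 FPKM, set the pseudocount to 0.1 or 5, or rescaled by quantiles or the upper quartile.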

Additional observations from a re-analysis of the deposited data

How the results depend on the processing

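C4H, Os06g0165800 and CCR kept their direction and their call in both comparisons of the mutant under every alternative run, and no scaling moved the median of all genes by over 0.1 on the log2 scale. The count of genes lower in the mutant went from 2 to 1 against OE with only the 2 groups in the fit. When single libraries were left out it ranged from 1 to 2 against WT and from 1 to 3 against OE. The 1 came from C3'H losing its call (without WT replicate 1 or mutant replicate 1 against WT, and without OE replicate 2, OE replicate 3 or mutant replicate 1 against OE). The cause was not tested. Over all genes, the 46 calls in OE against WT became 29 with the filter at 5 FPKM, where fewer genes were tested, and ranged from 27 (without WT replicate 1) to 71 (without OE replicate 1). OsCOMT in the mutant against WT passed without mutant replicate 1 (0.82, limma adjusted p = 0.015).

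Among log2 fold changes that did not pass, signs turned in OE against WT for C3'H with array weights (0.01), for Os06g0165800 with quantile normalization (-0.03) and for CAD3 with a pseudocount of 0.1 (0.00) or array weights (0.11). In the mutant against WT, array weights turned Os08g0498100 (0.02) and CAD2 (0.03). With single libraries left out, the log2 fold changes in OE against WT ranged from -0.22 to 0.38 for HCT, -0.28 to 0.14 for C3'H, -0.11 to 0.19 for Os06g0165800, -0.44 to 0.12 for Os08g0498100, -0.10 to 0.01 for CCR, -0.16 to 0.97 for CAld5H1, -0.07 to 0.83 for CAD2, -0.45 to 0.25 for 4CL2, -0.22 to 0.26 for CAD3, -0.36 to 0.02 for CAD8B and -0.19 to 0.09 for CAD8C. In the mutant against WT they ranged from -0.26 to 0.12 for Os08g0498100, -0.92 to 0.18 for CAld5H1 and -0.37 to 0.35 for CAD2. In the mutant against OE they ranged from -0.15 to 0.40 for Os08g0498100, -0.70 to 0.19 for Os08g0498400 and -0.86 to 0.03 for CAD2. The causes were not tested.

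The deviations of same-numbered libraries had correlations of -0.07 to 0.21 over the 9 pairs, highest for OE replicate 1 with mutant replicate 1. Differently numbered libraries ranged from -0.23 to 0.22. With 3 libraries a genotype, these values cannot tell whether same-numbered samples were paired or shared a batch. With the replicate number as a block the count of genes past the threshold was 4 for the mutant against WT, 4 for the mutant against OE and 0 for OE against WT, as without it. Few reads lie behind CAD7, Os08g0498400, CAD8B, CAD8C and CAD9.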
